A study of Vitis vinifera with 16 samples.

Results

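The step from véraison to harvest was followed in berries of Vitis vinifera 'Muscat Blanc à Petits Grains', a white aromatic grapevine, grown at Changli (CL) in eastern China. The members are the 4 CL samples of E-L35 (véraison, when berries begin to colour and enlarge) and E-L38 (harvest), 1 sample of each stage in each of the vintages 2010 and 2011, out of 16 samples in the series. They were chosen by the region, stage and vintage in their titles, and the comparison was paired by vintage. The labels give no treatment for any group, and the comparison region, Gaotai (GT) in the northwest, had the same cultivar, stages and vintages. E-L31 (pea-size berries) and E-L36 (intermediate sugar) were also sampled in each region and vintage. RNA came from berries without seeds, so skin and flesh were measured together, and each sample was a pool of berries from many vines of 1 vineyard. The 2 samples of a stage are therefore 2 vintages of the same vines, and the spread between them includes the season.

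Each of the 4 samples was sequenced as 2 libraries, 8 of the 24 libraries of the series, and the reads of both were summed. Library totals ran from 4628327 to 20294392 reads assigned to transcripts and sample totals from 19839304 to 26627006. The 2 libraries of a sample were not counted as replicates. The paper describes 2 repeats of the sampling in each vineyard. It gives scarce RNA of high quality as the reason for single libraries at E-L31 and E-L36. The labels do not tie the libraries to separate vineyard repeats, so the spread between the 2 libraries of a sample may be technical or include differences between repeats. The log2 counts of the 2 libraries correlated at r = 0.972 to 0.984 across transcripts, which are not independent replicates. The SD of their log2 ratio over transcripts with many reads was 0.151 in the tightest pair and 0.307 in the widest, that of E-L38 in 2010. The files hold 23984 RefSeq transcripts. A name from the paper or the reference table was found for 450, and the others are identified by accession only. Seed markers were not among these names, and photosynthesis was represented by 3 transcripts, so the labelled tissue could not be checked against a marker list.

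At véraison grape berries stop accumulating acid, soften, and begin to store hexoses, and the ripening programme that follows runs largely under abscisic acid and sugar signals. Softening involves pectin-degrading enzymes of the cell wall. Muscat aroma comes from monoterpenes, whose precursors are made in plastids by the methylerythritol phosphate (MEP) pathway, while the cytosolic mevalonate pathway feeds sesquiterpenes and sterols. Glucosyltransferases of the UGT families attach sugars to monoterpenols and many other small molecules.

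Far more transcripts were lower than higher at harvest among those that passed the test. Of 18665 transcripts tested in CL, 54 (0.289%) passed an adjusted p of at most 0.05 and a 2-fold change, of which 5 (0.0268%) rose and 49 (0.263%) fell from E-L35 to E-L38 (edgeR's quasi-likelihood test, Benjamini-Hochberg adjustment, vintage as a block). The falls ran from a log2 ratio of -1.46 to -6.89 and the rises from 1.95 to 5.45. Of the falling transcripts 39 reached 10 RPKM as the mean at E-L35, and of the rising ones 4 did so at E-L38. Without the block 33 rose and 187 fell, and with any 1 of the 4 samples left out 0 or 1 transcript was called. The smallest adjusted p, 0.037, was shared by 42 transcripts, and 4298 had an unadjusted p under 0.05. DESeq2 with the same samples and terms placed 396 higher (2.25% of the 17579 it gave an adjusted p) and 1171 lower (6.66%), and all 54 edgeR calls were among them. Fewer cells of a type and less RNA per cell cannot be told apart in these whole-berry samples.

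The 54 called transcripts were also separated in every library. In all of them the 4 E-L38 libraries lay on 1 side of the 4 E-L35 libraries, against 14.8% of all tested transcripts with the E-L38 libraries above and 16.7% with them below. Because the calls and this separation come from the same samples, the second is a description of the first. Across all tested transcripts 68.8% differed in the same direction in both vintages. At least a 2-fold difference in both vintages was found for 561 transcripts higher at E-L38 (3.01%) and 1470 lower (7.88%), while 421 differed at least 2-fold in opposite directions. The plot of both vintages shows this asymmetry.

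**Figure D1:**
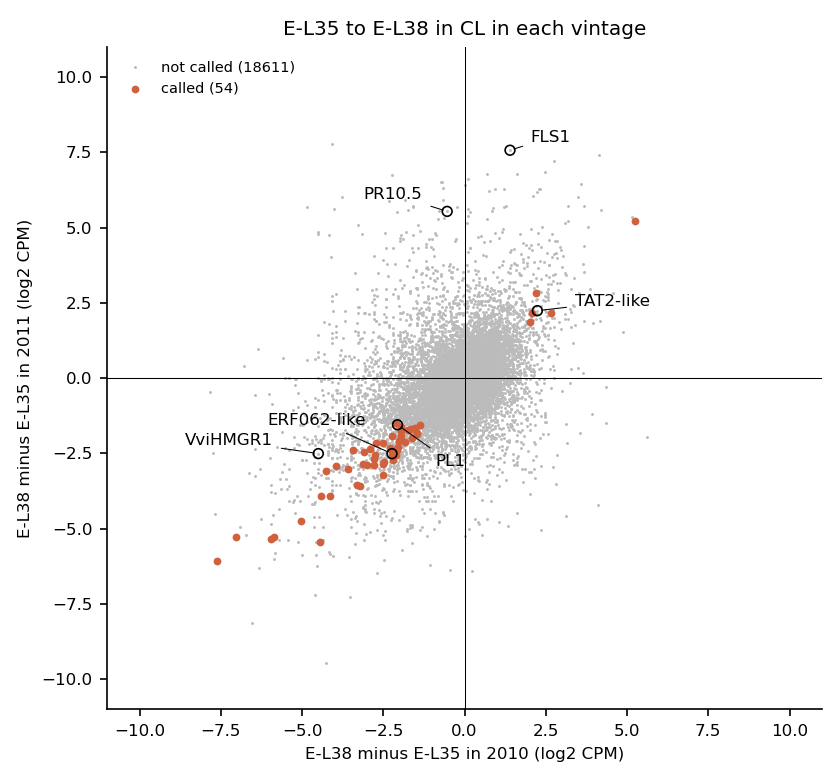
E-L38 minus E-L35 in CL for each tested transcript (log2 CPM), 2010 on the x axis and 2011 on the y axis, with the 54 called transcripts in colour and 6 named transcripts circled. The called transcripts lie near the diagonal, 49 in the lower left quadrant and 5 in the upper right, whereas PR10.5 and FLS1 sit high on the 2011 axis.

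Only 1 of the 54 called transcripts has a name, a gene for an ethylene-responsive transcription factor ERF062-like (XM_002267968.1). ERF proteins are DNA-binding regulators of the AP2 superfamily, many of which act downstream of ethylene and stress signals. Its level was 23.1 RPKM in 2010 and 37.7 RPKM in 2011 at E-L35, and 4.70 and 6.50 RPKM at E-L38. Both E-L38 samples lay below both E-L35 samples, a separation that all 54 called transcripts share. Within each vintage E-L36 lay between the 2 stages, at 16.5 and 24.6 RPKM. ERF062-like fell by 2.39 on the log2 scale (SE 0.23, edgeR adjusted p = 0.037), a 5.22-fold lower level at harvest. At E-L31 it had stood at 8.24 and 6.75 RPKM, so véraison was its highest stage in both vintages.

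Among the called transcripts without a name, the 2 largest falls and 2 largest rises of at least 10 RPKM in the higher stage are given here. XM_002285161.2 was at 119 and 95.4 RPKM at E-L35 and at 0.552 and 1.34 RPKM at E-L38, and fell by 6.89 on the log2 scale (SE 0.73). XM_002285304.2 was at 226 and 460.0 RPKM at E-L35 and at 3.44 and 11.1 RPKM at E-L38, and fell by 5.67 (SE 0.60). The former was already low at E-L36 in both vintages, whereas the latter still stood at 14.2 RPKM in 2010 and 111 RPKM in 2011. XM_002275352.2 rose by 2.51 (SE 0.24), from 7.99 and 4.10 RPKM to 35.4 and 28.4 RPKM. XM_002283312.1 rose by 2.41 (SE 0.19), from 9.21 and 8.34 RPKM to 55.98 and 36.7 RPKM, and E-L35 was its lowest stage in both vintages. The adjusted p of all 4 was 0.037, and without the block those of XM_002285304.2 and XM_002275352.2 were 0.0529 and 0.0533, just past the limit.

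**Figure D2:**
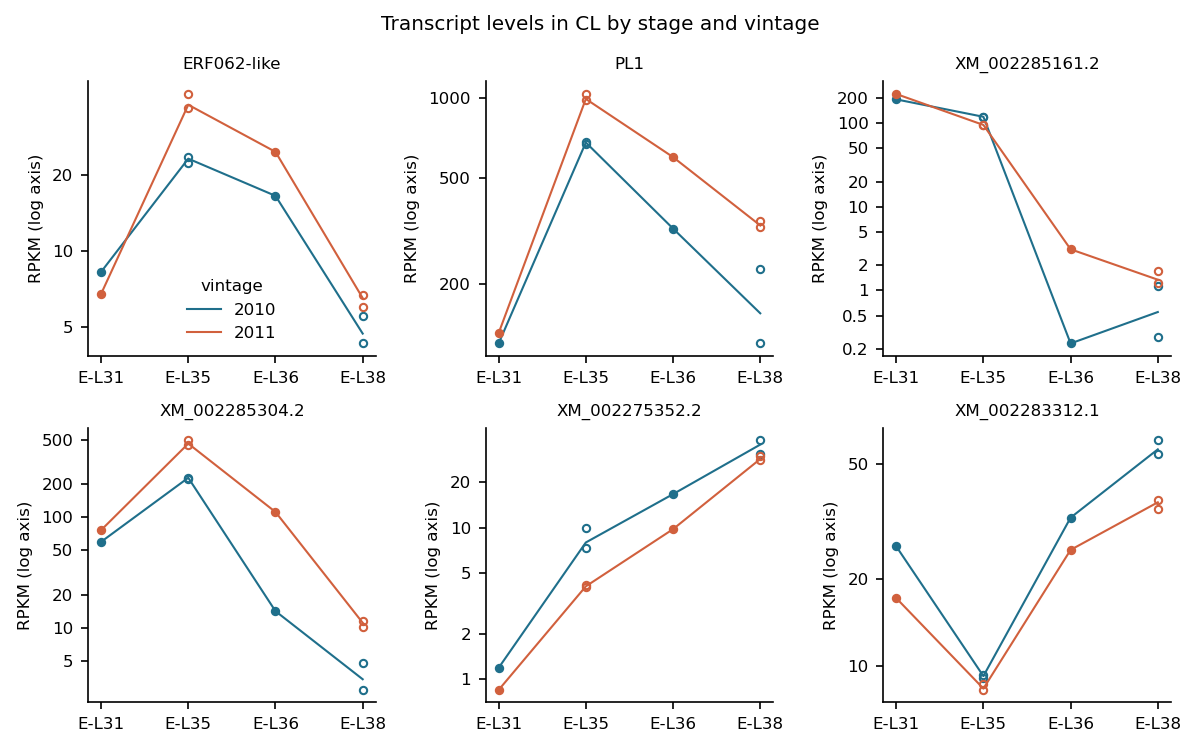
Levels in CL (RPKM, log axis) of ERF062-like, PL1 and 4 called transcripts without a name at the 4 stages, with 1 line per vintage through the sample values, filled points for the single libraries of E-L31 and E-L36 and open circles for the 2 libraries of each E-L35 and E-L38 sample. In 5 of the 6 panels E-L36 lies between E-L35 and E-L38 in both vintages, the exception being XM_002285161.2, which was at 0.232 RPKM at E-L36 and 0.552 RPKM at E-L38 in 2010.

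At E-L36 most of the called transcripts stood at an intermediate level. The E-L36 samples entered the same fit and its estimate of the spread, so this is a description and not outside evidence for the calls. Of the 49 falling transcripts, 46 had an E-L36 level between those of E-L35 and E-L38 in both vintages, as had all 5 rising ones, against 20.2% of all tested transcripts and 46.4% of those that differed at least 2-fold in the same direction in both vintages. Of the 49, 33 had an E-L35 level that was already under that of E-L31 in each vintage. The share of all tested transcripts with this order was not computed, so the 33 are a description only. On the log2 scale the falling transcripts had covered a median of 62.6% of the step by E-L36 in 2010 and 44.7% in 2011. In edgeR 0 transcripts were called for E-L36 against E-L35 (0%) and 0 for E-L38 against E-L36 (0%). Their counts at an unadjusted p under 0.05 were 1983 and 1663, and DESeq2 called 310 (1.97%) and 190 (1.18%). These comparisons share samples with that of E-L38 and E-L35, and the E-L36 sample of 2011 had 4698604 reads, the fewest of the 8 CL samples.

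None of the other named transcripts passed the edgeR test, and the values that follow for them are levels, not calls. Of 387 named transcripts tested, 150 had a higher and 237 a lower fitted level at E-L38, with a median log2 ratio of -0.25 against 0.02 for all transcripts. DESeq2 placed 9 of them higher and 51 lower, where its shares over all transcripts were 2.25% and 6.66%. A difference of at least 2-fold in both vintages was seen for 10 named transcripts upward and 66 downward. The shares of all tested transcripts were 3.01% and 7.88%, so the upward 10 of 387 is near its share. Many of the lists were drawn up by the study on these same samples, so their direction is not independent evidence. Transcripts named below outside the rule were chosen after their values were seen.

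**Figure D3:**
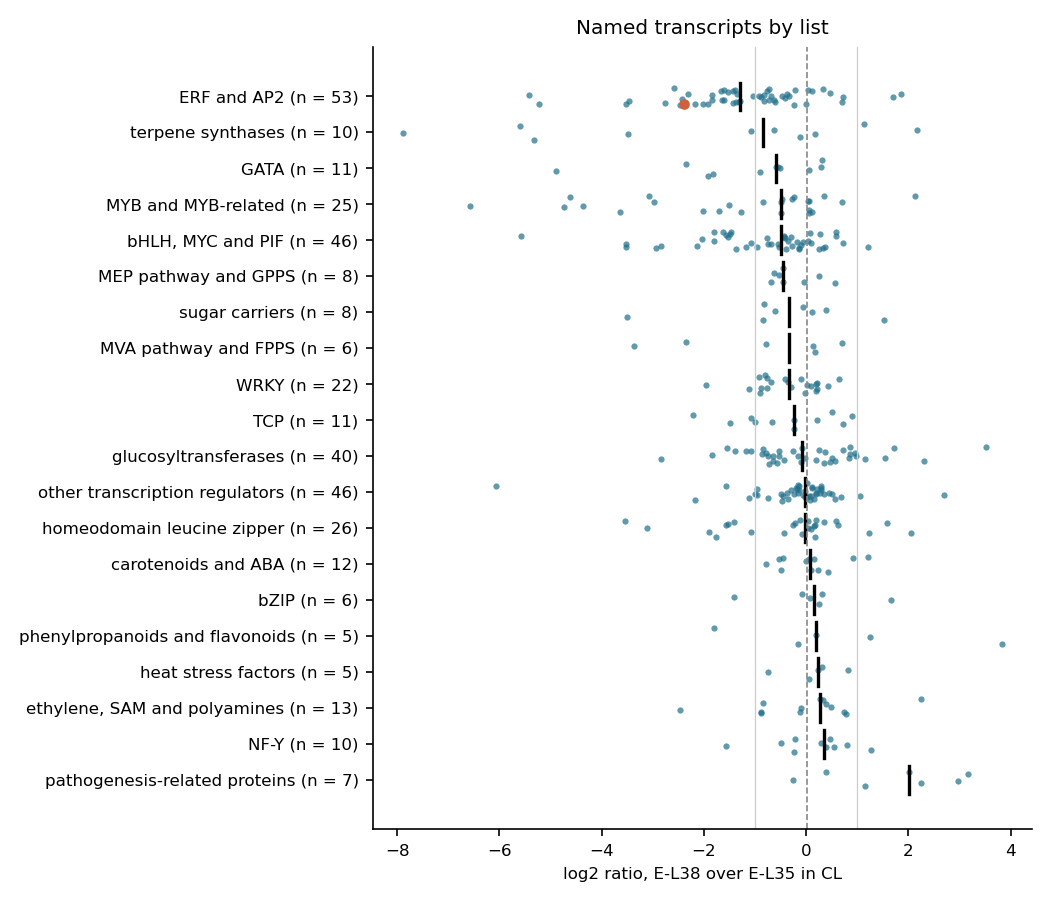
log2 ratio of E-L38 over E-L35 in CL for the named transcripts of each list with at least 5 tested members (1 point per transcript, black bar for the list median, dashed line for the median of all transcripts, thin lines at a 2-fold change). ERF and AP2 transcripts have the lowest median at -1.30 and pathogenesis-related transcripts the highest at 2.01, and the single called transcript is the larger point in the ERF and AP2 row.

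Cell wall genes were represented by PL1 (XM_002285603.2), the symbol of a pectate lyase, an enzyme that cleaves pectin. Its level was 679.7 and 989.5 RPKM at E-L35, 323 and 599 RPKM at E-L36, and 156 and 332 RPKM at E-L38. The order of the 3 stages was the same in each vintage, and both E-L38 samples lay below both E-L35 samples. The 2 libraries of E-L38 in 2010 differed, at 120.5 and 228 RPKM, and both were under every E-L35 library. Its log2 ratio was -1.80 (SE 0.26), and its adjusted p of 0.0553 in edgeR was just outside the limit (DESeq2 adjusted p = 2.8e-10).

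In the mevalonate pathway, 2 of the 3 transcripts for HMG-CoA reductase, its committed enzyme, were lower at harvest in both vintages. VviHMGR1 went from 13.2 RPKM in both E-L35 samples to 0.548 and 2.27 RPKM at E-L38 (log2 ratio -3.37, SE 0.62, edgeR adjusted p = 0.0644). VviHMGR3 went from 21.2 and 28.5 RPKM to 4.15 and 5.18 RPKM (log2 ratio -2.36, SE 0.32, adjusted p = 0.0551). The third, VviHMGR2, stood at 16.7 and 24.7 RPKM at E-L35 and 23.3 and 42.8 RPKM at E-L38, so the 3 transcripts did not share a direction. VviFPPS, which makes the C15 precursor farnesyl diphosphate, had a log2 ratio of -0.79, lower in 2010 and in 2011 (SE 0.19, adjusted p = 0.0904). DESeq2 placed VviHMGR1 and VviHMGR3 past both limits.

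In the MEP pathway the differences were smaller than those of VviHMGR1 and VviHMGR3. VviDXS, its first enzyme, was at 40.1 and 41.8 RPKM at E-L35 and 24.7 and 27.0 RPKM at E-L38 (log2 ratio -0.62, SE 0.15, adjusted p = 0.0889). VviDXR, the second, had a log2 ratio of -0.46 (SE 0.17), and the weakly expressed VviDXSL4 one of -0.70 (SE 0.48). VviDXSL4 differed between vintages, at 2.28 and 0.795 RPKM at the 2 stages in 2010 and 1.35 and 1.45 RPKM in 2011, and its log2 ratio ranged from -1.29 to -0.02 with 1 sample left out. VviHDR, the last enzyme and the most abundant, was at 603 and 509 RPKM and then 579.7 and 472 RPKM, a log2 ratio of -0.04 (SE 0.25). VviGPPS, which condenses the products to geranyl diphosphate, was nearly level at 12.6 and 12.2 RPKM against 14.6 and 14.3 RPKM. None of the 8 transcripts of this list was called by edgeR or DESeq2.

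Only 10 of the 31 listed terpene synthase transcripts had enough reads to be tested, and none exceeded 6.05 RPKM in the 4 samples. These are RefSeq transcripts only. The paper describes RefSeq as incomplete for terpene synthases and mapped them to a second set of sequences, which was not measured here. The levels below therefore do not stand for all terpene synthases. For XM_003634850.1 the paper reports a high abundance, without naming the sample. The clearest separation was in a pair of TPS-b monoterpene synthases. XM_003634850.1 was at 1.42 and 1.10 RPKM at E-L35 and at 0.028 and 0.0255 RPKM at E-L38, a log2 ratio of -5.33 (SE 0.66, adjusted p = 0.0506). XM_002275070.1 was at 0.789 and 0.828 RPKM at E-L35 and had no reads in either E-L38 sample, so it was at least 20.2-fold lower when 3 reads over the stage are taken as the floor. VviNerL8, of which most reads were shared with other transcripts, was likewise without reads at E-L38 and had been at 0.252 and 0.0884 RPKM, at least 4.10-fold lower. Among the 3 transcripts with a higher fitted level, VviNerL4 was the most abundant, at 3.41 and 0.110 RPKM at E-L35 and 3.48 and 6.05 RPKM at E-L38. Its difference lay in 2011 alone, and 28.5% of its reads mapped to a single place. VviMyrL3 had no reads in any of the 4 samples.

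Glucosyltransferase transcripts were divided in direction. Of 40 tested, 18 had a higher and 22 a lower fitted level at E-L38, with a median log2 ratio of -0.09, none called by edgeR. Within family 85, 11 of 13 had a lower fitted level, with a median of -0.75. This lay mainly in 2011, with a median of -1.22 against -0.08 in 2010, and 7 of the 13 were lower in both vintages. VviUGT85A1L8 was at 29.6 and 50.1 RPKM at E-L35 and 16.7 and 16.8 RPKM at E-L38 (log2 ratio -1.17, SE 0.26, adjusted p = 0.0822). VviUGT85A1L6, VviUGT85A1L4, VviUGT85A2L2 and VviUGT85A1L10 were lower at E-L38 in both vintages at levels under 5 RPKM, with log2 ratios from -1.39 to -2.85, and DESeq2 placed all 5 past its limits. Reads of several family 85 transcripts are split between near-identical copies: 57.9% of the reads of VviUGT85A1L8 and 50.3% of those of VviUGT85A2L2 mapped to a single place.

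The 3 glucosyltransferases linked to monoterpenol glucosides in grape, VviGT7, VviGT14 and VviGT15, went different ways. VviGT15 (VviUGT88A1L4) was at 8.69 and 11.2 RPKM at E-L35 and 4.36 and 4.67 RPKM at E-L38, without overlap (log2 ratio -1.09, SE 0.23, adjusted p = 0.0772). VviGT14 (VviUGT85A2L4) was the most abundant glucosyltransferase named here, and was at 119 and 121 RPKM at the 2 stages in 2010 but at 151 and 57.1 RPKM in 2011. Its fitted log2 ratio of -0.53 (SE 0.50) therefore came from 2011. VviGT7 (VviUGT88A1L3) was at 26.6 and 37.7 RPKM and then 32.7 and 26.8 RPKM, with overlapping stages. VviUGT85A1L3 was higher at E-L38 in both vintages, from 20.7 and 6.15 RPKM to 30.8 and 42.6 RPKM (log2 ratio 1.72, SE 0.69, adjusted p = 0.208). The others named VviUGT, which were VviUGT85A1L1, VviUGT85A1L2, VviUGT85A1L5, VviUGT85A1L7, VviUGT85A1L9, VviUGT85A1L11, VviUGT71C4L1, VviUGT71C4L3, VviUGT86A1L and VviUGT88A1L1, had adjusted p-values of 0.18 or more.

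In the bHLH, MYC and PIF list, 35 of 46 tested had a lower fitted level, 15 were at least 2-fold lower in both vintages and none at least 2-fold higher, where the share of all transcripts that were lower is 7.88%. These basic helix-loop-helix proteins are a large family of regulators. The 15 include weakly expressed transcripts that rest on few reads. Examples are bHLH110-like, at 0.961 to 1.99 RPKM in the E-L35 libraries, and GLABRA 3-like, at 0.301 to 0.450 RPKM. The 4 most abundant of the 15 at E-L35 are given here. bHLH104-like (XM_002268554.2) was at 28.9 and 27.4 RPKM at E-L35 and 12.5 and 5.78 RPKM at E-L38, and had reached 10.3 and 10.73 RPKM by E-L36. bHLH62-like (XM_002264933.2) was still at 13.6 and 15.3 RPKM at E-L36, close to its 18.3 and 15.98 RPKM at E-L35, and stood at 7.10 and 7.51 RPKM at E-L38. At E-L36 bHLH62-like was thus closer to its véraison level in both vintages, and bHLH104-like closer to its harvest level, though still above it in 2011. The log2 ratios were -1.63 (SE 0.33) and -1.18 (SE 0.19), with edgeR adjusted p = 0.0712 and 0.0558. bHLH113-like (XM_002273889.1), from 53.3 and 37.2 RPKM to 24.4 and 17.1 RPKM, and bHLH71-like (XM_002278788.2), from 12.4 and 14.8 RPKM to 2.88 and 5.07 RPKM, were lower in both vintages too.

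MYB and MYB-related transcripts had 10 of 25 members at least 2-fold lower in both vintages and none higher, all with means under 4 RPKM at E-L35. Of all tested transcripts 7.88% were lower and 3.01% higher by this measure. WER-like (XM_002279092.2), named after an Arabidopsis regulator of root epidermal cells, was at 4.80 and 3.09 RPKM at E-L35 and 0.143 and 0.131 RPKM at E-L38. A TT2-like transcript (XM_002278193.2), named after the Arabidopsis regulator of proanthocyanidin synthesis, was at 1.25 and 0.656 RPKM and then without reads, at least 9.07-fold lower on the same floor. APL-like (XM_002264221.2), after an Arabidopsis phloem regulator, was at 3.53 and 3.37 RPKM and then 0.205 and 0.623 RPKM. In WER-like and APL-like every E-L38 library lay below every E-L35 library. The TT2-like transcript rests on few reads, and its 2 libraries of E-L35 in 2011 gave 0.844 and 0 RPKM. The adjusted p of edgeR for the 3 was between 0.0567 and 0.0783. VviMYBA2, one of the grape colour regulators, showed a vintage difference instead, with 42.6 RPKM in 2010 and 6.88 RPKM in 2011 at E-L35, and 45.1 and 19.7 RPKM at E-L38.

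Among smaller families, GATA factors had 4 of 11 and TCP factors 3 of 11 transcripts at least 2-fold lower in both vintages. The share of all tested transcripts was 7.88%. GATA16-like (XM_002275462.2) was at 6.98 and 5.06 RPKM at E-L35 and 1.24 and 1.05 RPKM at E-L38. TCP13-like (XM_002277038.2) was at 7.65 and 11.04 RPKM and then 1.59 and 2.35 RPKM. TCP proteins are regulators of cell proliferation and organ growth in plants. In the homeodomain leucine zipper list, with 13 transcripts on each side of 0, ATHB-13-like (XM_002276853.1) stood out at 36.9 and 44.9 RPKM at E-L35 against 3.39 and 6.39 RPKM at E-L38 (log2 ratio -3.11, SE 0.66, adjusted p = 0.0765). Its E-L36 level was 2.67 RPKM in 2010 and 18.97 RPKM in 2011, so the timing differed between vintages. NF-Y subunits, which are general CCAAT-binding regulators, had 6 of 10 higher and a median of 0.35.

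Among lists with at least 5 tested members shown in the plot of lists, ERF and AP2 had the lowest median, -1.30 over 53 transcripts, but their values differed between the vintages. E-L35 in 2011 was the highest of the 4 samples for 36 of the 53 (67.9%) and at least 2-fold above each of the other 3 for 21 (39.6%), compared with 32.1% and 2.01% of all tested transcripts. The list's median log2 ratio was -0.47 in 2010 and -1.85 in 2011. Of 16 transcripts described as ethylene-responsive transcription factor 5-like, 14 were highest in E-L35 of 2011 and 13 were at least 2-fold above the other 3 samples. The example XM_002281777.2 was at 3.52 RPKM in 2010 and 29.8 RPKM in 2011 at E-L35, and at 2.26 and 6.01 RPKM at E-L38. Both libraries of E-L35 in 2011 gave this level, 28.6 and 30.2 RPKM. Several members of this set share reads with each other, 31.9% to 100% of reads mapping to a single place. In the WRKY family, plant regulators best known from defence, 16 of 22 transcripts were highest in this sample. WRKY41-like (XM_002272684.1) is an example, with 2.55 and 21.3 RPKM at E-L35 and 2.13 and 1.76 RPKM at E-L38. RAP2-4-like (XM_002285766.2) was lower at E-L38 in both vintages, from 54.1 and 85.4 RPKM to 28.3 and 22.98 RPKM.

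Pathogenesis-related transcripts carried the reverse pattern, with 6 of 7 at least 2-fold higher in E-L38 of 2011 than in each of the other 3 samples (85.7%, against 3.60% of all tested transcripts). PR10 proteins are small intracellular proteins that accumulate on infection and stress. PR10.2, by far the most abundant, was at 364 and 236 RPKM at E-L35 and at 238 RPKM in 2010 but 1744 RPKM in 2011 at E-L38. PR10.5 was at 2.49 and 0.784 RPKM and then 1.64 and 37.5 RPKM, and PR10.7 at 2.60 and 1.21 RPKM and then 3.35 and 31.9 RPKM. The direction in 2010 alone was downward for PR10.2 and PR10.5, and without E-L38 of 2011 their log2 ratios were -1.005 and -0.17 instead of 2.01 and 3.16. PR10.4 reversed in the same way, from 2.24 to -4.46. For PR10.5 the 2 libraries of E-L38 in 2010 gave 0.610 and 3.73 RPKM, either side of the 2.47 and 2.56 RPKM of E-L35, so its direction in that vintage was not settled. In edgeR none of these passed the test, while DESeq2 placed PR10.5 and PR10.7 past its limits. FLS1, a flavonol synthase, was at 0.637 and 0.0341 RPKM at E-L35 and 1.64 and 9.95 RPKM at E-L38. Unlike PR10.2 and PR10.5, it was higher at E-L38 in both vintages, though by more in 2011. All its E-L38 libraries lay above all its E-L35 libraries. With 1 sample left out its log2 ratio ranged from 2.01 to 7.59. GVVPAL2, a phenylalanine ammonia-lyase at the entry of the phenylpropanoid pathway with 37.1% of its reads mapping to a single place, was between 0.933 and 1.56 RPKM in 3 samples and at 7.43 RPKM in E-L38 of 2011. Of this list of 5, OMT1, an O-methyltransferase, was the only one lower by 2-fold in both vintages, from 4.20 and 2.82 RPKM to 0.862 and 1.05 RPKM.

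**Figure D4:**
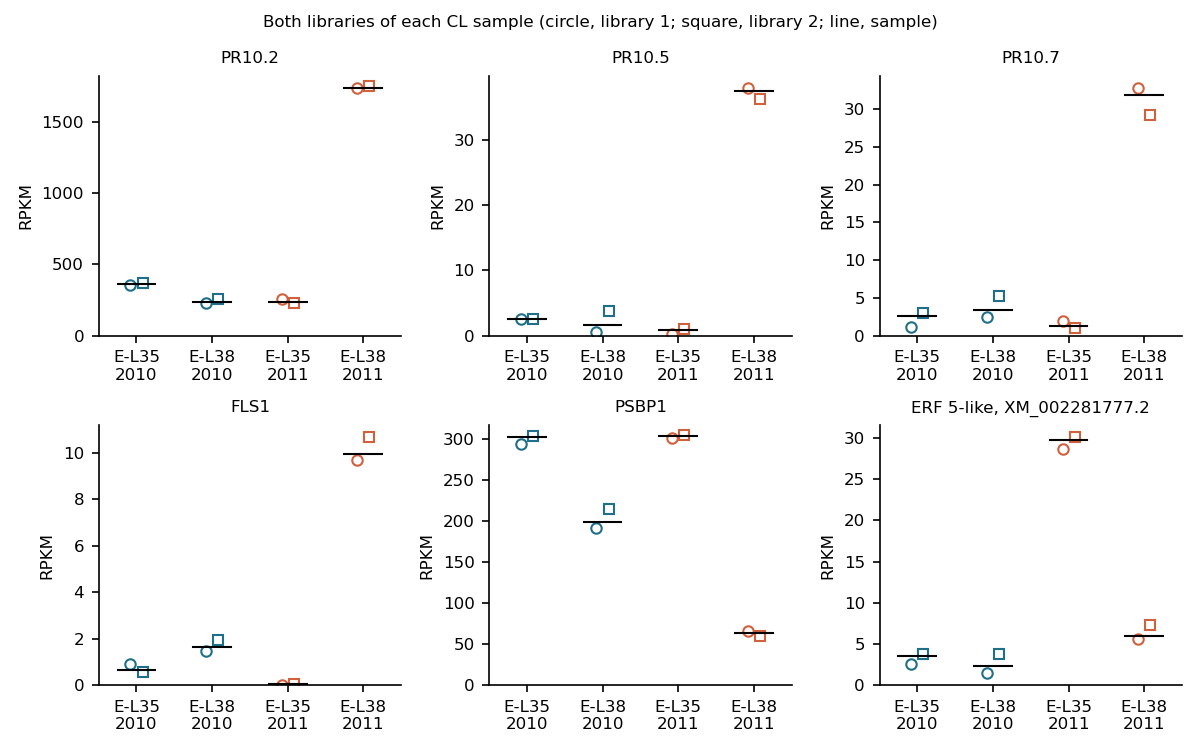
RPKM in CL of 6 transcripts in the 2 libraries of each E-L35 and E-L38 sample (circle, library 1; square, library 2; line, value from the summed reads). Both libraries of E-L38 in 2011 lie above the other 6 for PR10.2, PR10.5, PR10.7 and FLS1 and below them for PSBP1, both of E-L35 in 2011 lie above the others for the ERF 5-like transcript, and the libraries of E-L38 in 2010 are apart for PR10.5 at 0.610 and 3.73 RPKM.

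Chloroplast transcripts were few. PSBP1, a subunit of the oxygen-evolving complex of photosystem II, was at 302 and 304 RPKM at E-L35, at 199.6 RPKM in 2010 and at 64.1 RPKM in 2011 at E-L38. Both E-L38 samples were below both E-L35 samples, but by very unequal amounts, and the log2 ratio of -1.25 had an SE of 0.47 (adjusted p = 0.192). PSBP2, of the same family, was at 6.17 and 7.02 RPKM and then 2.98 and 4.19 RPKM, and PIFI, with 2.26% of its reads mapping to a single place, was at 1.41 and 1.40 RPKM and then 3.44 and 6.25 RPKM. The part of photosynthetic tissue in the other results was not tested.

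Ethylene and polyamine genes showed no common direction, with 7 of 13 higher and 6 lower. ACO1 (XM_002273394.2), an enzyme of the last step of ethylene synthesis, was at 11.9 and 5.99 RPKM at E-L35 and 1.59 and 1.45 RPKM at E-L38 (log2 ratio -2.48, SE 0.53, adjusted p = 0.0783), whereas a second ACC oxidase 1-like transcript (XM_002279710.2) went from 41.3 and 40.9 RPKM to 22.2 and 20.5 RPKM after 89.9 RPKM at E-L36 in 2011. The ethylene receptor 2-like transcript was at 24.8 and 35.7 RPKM and then 11.4 and 23.2 RPKM. A SAMDC transcript (XM_003631291.1), for the decarboxylase that supplies polyamine synthesis, was higher at harvest in both vintages, from 223 and 181 RPKM to 371 and 302 RPKM, with a log2 ratio of 0.78 (SE 0.18) and an adjusted p of 0.0893. The TAT2-like aminotransferase (XM_002282628.2) was higher in both vintages, from 17.5 and 6.80 RPKM to 79.2 and 31.7 RPKM with log2 ratios of 2.24 in both vintages. The share of its reads that mapped to a single place was 10.98%, and its adjusted p was 0.11.

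Carotenoid and abscisic acid genes were also divided, with 7 of 12 higher and 5 lower and a median of 0.08. A CCD4-like carotenoid cleavage dioxygenase (XM_002270125.1), of the enzyme class that releases norisoprenoid aroma compounds, was at 54.7 and 42.2 RPKM at E-L35 and at 115 and 102 RPKM at E-L38, a log2 ratio of 1.20 (SE 0.33, adjusted p = 0.115). The stages did not overlap, and E-L36 lay between them only in 2010. The abscisic acid receptor PYR1-like (XM_002280325.1) was at 91.7 and 109.7 RPKM and then 47.1 and 66.1 RPKM. Sugar carriers were represented by 8 tested transcripts with a median of -0.33. Their most abundant member, the tonoplast hexose carrier TMT2, was at 83.1 and 101 RPKM and then 33.99 and 73.9 RPKM, with 5.37% of its reads mapping to a single place.

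A few other named transcripts were placed past the limits by DESeq2 alone. HP3 was at 14.1 and 14.2 RPKM at E-L35 and at 3.65 and 5.85 RPKM at E-L38. The 2 phytochrome transcripts, which encode red light receptors, went in opposite directions, PHYA from 5.76 and 5.31 RPKM to 9.22 and 15.4 RPKM and PHYE from 4.31 and 5.45 RPKM to 2.00 and 1.24 RPKM. The general transcription factor TFIID subunit 11-like (XM_002276981.2) was higher in both vintages, from 19.5 and 16.4 RPKM to 33.1 and 39.3 RPKM (log2 ratio 1.06, SE 0.21, edgeR adjusted p = 0.0712).

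The same step in GT gives a reading of the CL calls in samples they did not use, though the GT fit also held the CL samples. All 54 called transcripts had the same direction in GT, against 73.8% of all tested transcripts, and 38 of them were called there too (70.4% of the CL calls and 1.72% of the 2211 GT calls). The 73.8% covers transcripts with any size of change and is not matched to the called ones. The median log2 ratio of the 49 falling transcripts was -2.48 in CL and -2.71 in GT. In 1 fit of all 16 samples, 29 transcripts were higher (0.152%) and 108 lower (0.568%) at E-L38 in CL, and 592 higher (3.11%) and 1619 lower (8.51%) in GT. These counts do not show that the step differed. The difference itself was tested as an interaction, and 0 of 19026 transcripts (0%) passed in edgeR, with 1710 at an unadjusted p under 0.05 and a smallest adjusted p of 0.104, while DESeq2 called 223 (1.57%).

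ERF062-like, the one named call, was at 22.1 and 40.6 RPKM at E-L35 and 10.1 and 13.5 RPKM at E-L38 in GT, a log2 ratio of -1.07 (SE 0.23) beside -2.39 in CL, and its interaction had an adjusted p of 0.325. bHLH62-like went the other way, with -1.19 in CL and -2.71 in GT in the same fit (difference 1.53, SE 0.36, adjusted p = 0.325). CCD4-like, at 12.5 and 13.7 RPKM in E-L35 and 133 and 141 RPKM in E-L38 of GT, had log2 ratios of 1.20 in CL and 3.69 in GT (adjusted p of the difference 0.527). VviGT14 was at 22.6 and 34.9 RPKM and then 110.3 and 93.3 RPKM in GT, a log2 ratio of 2.28, whereas the fitted CL ratio was -0.53 (adjusted p of the difference 0.49). In these examples the CL level at véraison was the one that stood apart for CCD4-like and VviGT14, above that of GT in both vintages, while the harvest levels of the 2 regions were closer.

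**Figure D5:**
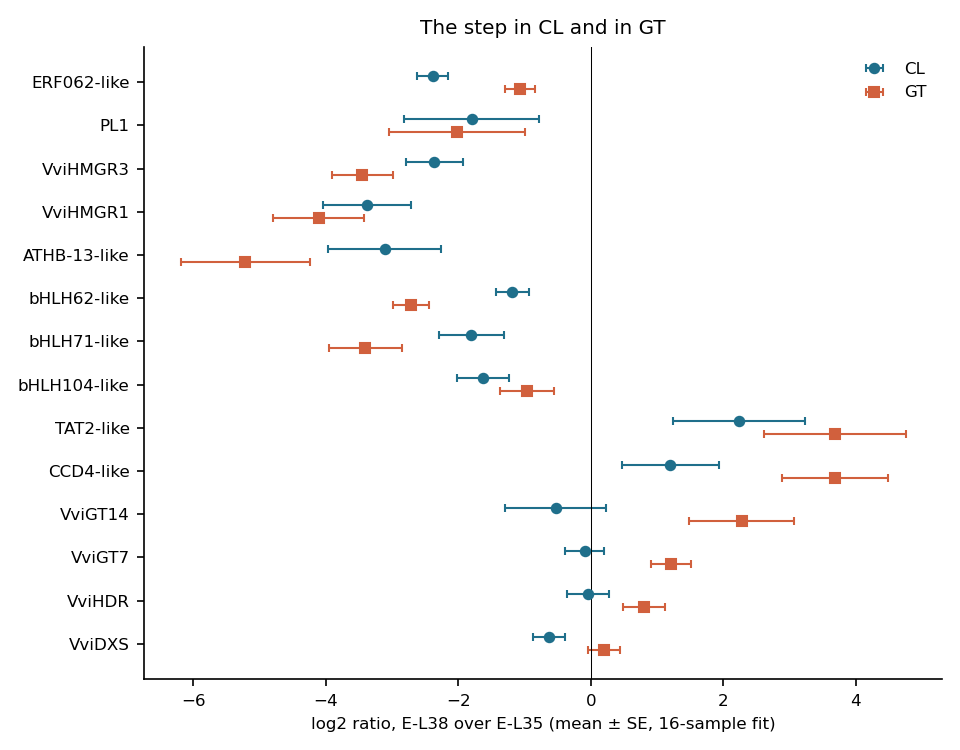
log2 ratio of E-L38 over E-L35 in CL (circles) and GT (squares) for 14 named transcripts, as fitted value with its SE from the fit of all 16 samples. ERF062-like is lower in CL and bHLH62-like lower in GT by more than the SE bars, VviGT14 is at -0.53 in CL and 2.28 in GT, and none of the differences between regions passed the interaction test.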

How the data were processed

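The authors sequenced strand-specific libraries of deseeded berries, used CLC Genomics Workbench to map the trimmed reads to RefSeq mRNAs, divided multiply mapping reads in proportion to the unique ones, and deposited per library the total and unique gene reads (whole-number counts) and RPKM, reads scaled by transcript length and by all assigned reads of the library. For terpene synthases the authors also mapped to a second set of mRNAs, whose values are not among those used here. Neither labels nor tables say which vineyard repeat a library came from. Here the counts of the libraries of each sample were summed and RPKM recomputed from the sums. A transcript was tested where 2 or more of the 8 CL samples held 10 or more counts, using edgeR 4.0.16 in R 4.3.3 (TMM, quasi-likelihood, terms stage and vintage). The limits for a call were an adjusted p no higher than 0.05 and a log2 ratio of 1 or more in either direction. The difference between regions was fitted on all 16 samples with a vintage term in each region. Log2 ratios within a vintage used a prior count of 0.5. DESeq2 1.42.0, limma 3.58.1 on log2(RPKM + 1) and other filters, scalings, reads and sample sets were alternatives. The fits of the step and of the interaction were run on simulated counts with planted changes. Those counts held no difference between vintages, so they do not show how the fits behave where vintages differ. Depth sets precision for low transcripts, and the floors cover counting error only. The SEs come from the quasi-likelihood fit and include the spread between samples.

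Vintage is given by the titles as the shared season. The difference of 2011 from 2010 at E-L35 correlated at -0.01 with that at E-L38 across 10750 transcripts, and other pairs of CL stages gave -0.14 to 0.375. By rule the text names transcripts with a Vvi name, the called transcripts of each list with the largest ratios, the most abundant or most changed called transcripts that have a name, and 2 rising and 2 falling ones without a name. The members and lists were chosen with earlier results of these data known. Names came from the paper (397 transcripts) and from the reference table of assembly ASM3070453v1 (14054 of 23984 accessions matched, 54 with a gene symbol). That assembly is not the one the reads were mapped to, and it gave no coordinates here. The p-values of the CL step rest on the spread left after the stage and vintage terms, over the 8 CL samples of 1 vineyard. A mean difference between the vintages is taken out by the vintage term. Those of GT and of the interaction rest on the fit of all 16 samples.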

Additional observations from a re-analysis of the deposited data

Results flagged for a closer look

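The following results differed in direction between regions by their sample values, in that both vintages moved one way in CL and the other way in GT. The ethylene receptor 2-like transcript (XM_002284471.1) was lower at E-L38 in CL and higher in GT, from 14.5 and 13.1 RPKM to 16.3 and 20.2 RPKM, a difference of log2 ratios of -1.55 (SE 0.39, unadjusted p = 0.0032 in edgeR's interaction test, adjusted p = 0.325). The abscisic acid receptor PYR1-like (XM_002280325.1), at 41.9 and 41.3 RPKM and then 55.3 and 54.4 RPKM in GT, had a difference of -1.49 (SE 0.42, adjusted p = 0.361). PR10.7 was at 22.3 and 6.15 RPKM and then 3.78 and 4.46 RPKM in GT, a difference of 4.49 (SE 1.51, adjusted p = 0.425), of which the CL part came from E-L38 of 2011. The CL libraries of PR10.7 in 2010 overlapped, at 3.05 and 1.16 RPKM at E-L35 and 2.44 and 5.19 RPKM at E-L38. Its direction in that vintage was therefore not settled. None of the 3 passed the interaction test after adjustment.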

How the results depend on the processing

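The count of called transcripts for E-L38 against E-L35 in CL moved with nearly every choice. Against 54 (5 higher, 49 lower), it was 70 with RLE scaling, 220 without the replicate block, 137 with all 16 samples and the block in each region, 223 with all 16 samples and no block, 217 with unique reads, 317 without the low-count filter, 158 with the first libraries only, 1 with the second libraries only and 1567 with DESeq2. It was 0 with only the 4 samples and the block, 0 with library totals and 0 with limma on log2(RPKM + 1), and 0 to 1 with each of the 4 samples left out (1 without E-L38 of 2010). The share of calls that were higher was 9.26% as reported, 24.7% with all 16 samples and no block and 25.3% in DESeq2. Both E-L36 comparisons, whose alternatives were added after seeing the data, stayed at 0 except in DESeq2 (310 and 190). The interaction gave 1 call without the block, 223 in DESeq2, 0 to 1 with a sample left out and 0 with RLE. The causes were not tested. Of 74 transcripts followed by name or accession, 64 kept their direction in those of the 16 alternatives that gave a value. The log2 ratio of VviHDR was 0.011 with the first libraries and that of VviUGT85A1L5 was 0.46 with the second, against -0.04 and -0.09. With 1 sample left out the log2 ratio ranged from -1.005 to 3.26 for PR10.2, from -0.17 to 4.94 for PR10.5, from -4.46 to 4.67 for PR10.4, from -0.35 to 2.35 for GVVPAL2, from -0.053 to 1.75 for VviMYBA2, from -0.47 to 0.34 for VviGT7, from -1.47 to 0.17 for VviGT14, from -0.19 to 0.11 for VviHDR, from -1.63 to 0.26 for VviUGT85A1L2 and from -0.32 to 0.15 for VviUGT85A1L5. Transcripts of the lowest levels rest on few reads in these libraries, so their ratios are the least certain.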
